A study of Homo sapiens with 6 samples.

Results

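Subunits of AP-1 were followed as a gene family across 6 bulk RNA-seq libraries labelled PANC-1, an established human line from a pancreatic ductal carcinoma. The family was taken as the rows of the count table whose symbol equals 1 of 10 AP-1 gene names, FOS, FOSB, FOSL1, FOSL2, JUN, JUNB, JUND, ATF3, BATF3 and MAFF. All 10 were found once each among 60623 genes, and all 10 passed the filter on low counts. Per the labels, 3 libraries carry a hairpin RNA against STN1, in columns named Sh4, and 3 carry a scramble control hairpin with a wild-type genotype label. All cells grew in DMEM with 10% FBS at 37 °C and 5% CO2, so serum, an inducer of several AP-1 genes, was present in both groups. The labels call the libraries biological replicates and do not say whether the cells came from 1 clone or from separate cultures, so the spread behind each p-value is that among these libraries and may be partly technical.

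AP-1 is a dimer of basic leucine zipper proteins that binds the TPA response element and the related cAMP response element. FOS proteins cannot pair with each other and bind DNA together with a JUN protein, whereas JUN proteins also form homodimers. Many of the genes are immediate-early genes, transcribed quickly and briefly after growth factors, serum or stress. In carcinoma cells, FOSL1 and JUN are known as effectors of RAS and ERK signalling that drive invasion genes.

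The targeted gene did not separate the labels. STN1 had 387, 346 and 278 reads in control and 303, 306 and 275 reads in the shSTN1-labelled libraries (log2 fold change -0.15, edgeR adjusted p = 0.253), so each direction given is between libraries as labelled. The genotype label of shSTN1 replicates 2 and 3 reads STN2 and STN3 knockdown, against shSTN1 in their titles. The libraries held 17357223 to 23336942 reads. The groups also stood apart in markers of cell identity. Over all genes tested, 35.6% were higher and 38.5% lower in the group labelled shSTN1, at an edgeR adjusted p under 0.05. Of 14 epithelial and pancreatic carcinoma markers, 11 were tested and all 11 were higher in the group labelled shSTN1. Their summed level there was 5931 to 6102 CPM (read counts scaled to a common library size) against 1005 to 1076 CPM in control, led by the keratin genes KRT8, KRT18 and KRT19. None of the 14 lacked reads in either group. Of 14 embryonic kidney and neural crest line markers, 12 were tested, 9 lower and 2 higher, with a summed level of 102 to 107 CPM against 536 to 573 CPM. The neurofilament gene NEFM had 2970, 3026 and 2411 reads in control and 3, 0 and 1 in the shSTN1-labelled libraries. NEFL, another neurofilament gene, was at 91.1 and 0.234 CPM. PAX2, a kidney development factor, went the other way, from 24.2 to 62.4 CPM (log2 fold change 1.37). SALL1, named after its values were seen, had no reads in the shSTN1-labelled libraries. CDKN2A, a gene that PANC-1 is described as lacking, had 11753 control reads and 0 reads in the shSTN1-labelled libraries. It is on none of the gene lists used here and was not picked by the naming rule. The CDKN2A reads go against the PANC-1 label of the control libraries. A difference between kinds of cells and an effect of the hairpin cannot be told apart here, which holds for each difference below. Summed fibroblast markers were at 75.8 to 91.5 CPM in control and 171 to 185 CPM in the shSTN1-labelled libraries, leukocyte markers at 16.3 to 18.3 and 19.7 to 22.8 CPM, and endothelial markers at 15.3 to 20.5 and 5.05 to 6.32 CPM. The leukocyte markers CD3E and TYROBP and the endothelial marker PECAM1 had no reads in either group. The part of these differences in the AP-1 results was not tested, and in bulk RNA fewer cells of a type and less RNA per cell cannot be told apart.

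The 4 FOS genes were higher and ATF3 was lower in the shSTN1-labelled libraries, and JUN did not pass the test. Of the 10 AP-1 genes, 9 passed the edgeR adjusted p of 0.05, where 74.1% of all 17451 genes tested passed, so that count is close to the background. Of the 10 tested, 6 passed and were higher, as did 35.6% of all genes tested. The 3 that passed and were lower stand against 38.5% of all genes tested. Of the 10, 5 differed by 2-fold or more, as did 34.6% of all genes. They were FOSL1, FOSB, FOS and FOSL2 upward and ATF3 downward. The groups did not overlap for 8 of 10 members, where the share over all genes was 75.6%. The median log2 fold change was 0.87 over the members and -0.03 over all genes tested.

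**Figure D1:**
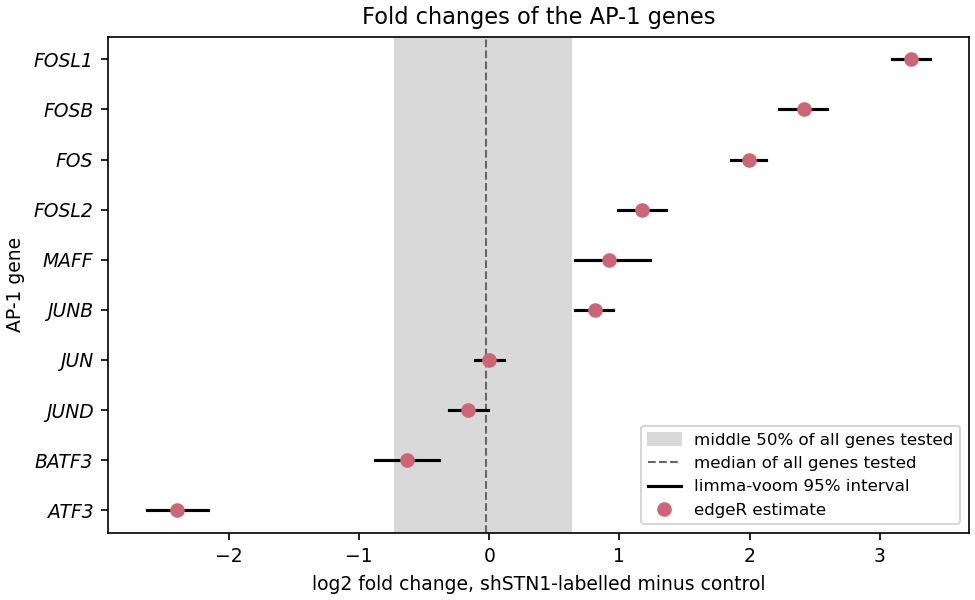
Log2 fold change of each AP-1 gene, shSTN1-labelled minus control (horizontal axis), with the edgeR estimate as a point and the limma-voom 95% interval as a line. The grey band holds the middle 50% of all genes tested, from -0.72 to 0.63, and FOSL1, FOSB, FOS, FOSL2, MAFF and JUNB lie to its right while ATF3 lies to its left.

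FOSL1 encodes FRA1, a FOS protein without the strong transactivation domain of FOS that ERK signalling stabilises. It lies on chromosome 11, positions 65892049 to 65900573 (GRCh38). Its level was 33.7, 33.8 and 32.2 CPM in the control libraries and 306, 321 and 315 CPM in the shSTN1-labelled libraries. Every shSTN1-labelled library lay far above every control library, and the spread within each group was small. The level was 9.44-fold higher, at a log2 fold change of 3.24 (SE 0.0301, edgeR adjusted p = 4.23e-28), and 6.84% of all genes tested had a larger absolute log2 fold change. That share was 11% for FOSB, 11.2% for ATF3, 15% for FOS and 29.2% for FOSL2. It was 37.8% for MAFF, 42.8% for JUNB, 52.3% for BATF3, 85.9% for JUND and 99.9% for JUN.

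FOS, the founding member and a short-lived immediate-early protein, lies on chromosome 14, positions 75278774 to 75282230. It stood at 61.1, 60.5 and 60.8 CPM in control and at 244, 233 and 249 CPM in the shSTN1-labelled libraries. The groups were 3.98-fold apart (log2 fold change 1.99, SE 0.028, edgeR adjusted p = 4.09e-23). FOSB, whose splice variants include the long-lived DeltaFosB, lies on chromosome 19, positions 45467995 to 45475179. It stood at 24.0, 26.3 and 25.6 CPM in control and at 124, 132 and 150 CPM in the shSTN1-labelled libraries. The shSTN1-labelled libraries differed more among themselves here than for FOS, yet the lowest of them lay well above the highest control library. The level was 5.35-fold higher (log2 fold change 2.42, SE 0.0897, edgeR adjusted p = 1.15e-22).

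FOSL2, which encodes FRA2, lies on chromosome 2, positions 28392448 to 28417312. It rose from 22.8, 24.5 and 23.7 CPM in control to 56.5, 48.5 and 55.5 CPM, with shSTN1 replicate 2 the lowest of the raised libraries. The 2.26-fold difference (log2 fold change 1.18, SE 0.0753, edgeR adjusted p = 2.25e-13) was the smallest of the 4 FOS genes, and all 4 rose. Gene-level counts do not tell the splice variants of FOSB apart.

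**Figure D2:**
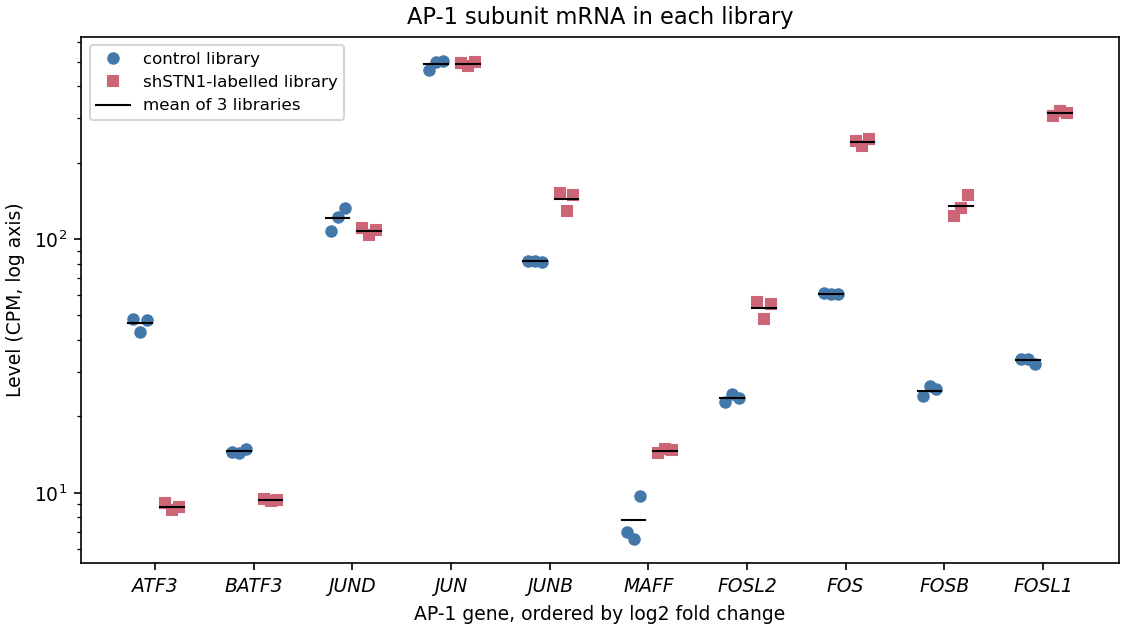
Level of each AP-1 gene in CPM (vertical log axis) in the 3 control libraries (blue circles) and the 3 shSTN1-labelled libraries (red squares), with the group mean as a bar. The groups are apart for 8 genes and overlap for JUN, at 490.0 and 491 CPM on average, and for JUND.

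The sequences before the start sites of the FOS genes are shown because 3 of the raised genes share a motif at nearly the same place. The sequences are RefSeq's, of the build GRCh38.p14, and 8 of the 10 members matched that table. FOSL1 and BATF3 did not. The 250 bases before each start were searched on both strands, and only bases outside annotated exons of the gene are printed, from position -250, where -1 is the base before the RefSeq start. Capitals mark the cAMP response element half-site TGACGT and the TATA box TATAAA. The TATA box of FOS lies in an annotated exon, past the printed stretch.
FOS, chr14:75278578-75278773, plus strand, positions -250 to -55: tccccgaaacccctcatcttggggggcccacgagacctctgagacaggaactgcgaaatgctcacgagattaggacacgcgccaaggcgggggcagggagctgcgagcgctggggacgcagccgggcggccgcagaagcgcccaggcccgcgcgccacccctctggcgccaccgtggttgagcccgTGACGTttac
FOSB, chr19:45467746-45467994, plus strand, positions -250 to -2: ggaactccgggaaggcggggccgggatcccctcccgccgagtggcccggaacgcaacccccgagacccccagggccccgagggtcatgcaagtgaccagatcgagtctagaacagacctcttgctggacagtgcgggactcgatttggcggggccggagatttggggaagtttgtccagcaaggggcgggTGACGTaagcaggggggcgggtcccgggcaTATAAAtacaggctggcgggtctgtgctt
FOSL2, chr2:28392608-28392801, plus strand, positions -250 to -57: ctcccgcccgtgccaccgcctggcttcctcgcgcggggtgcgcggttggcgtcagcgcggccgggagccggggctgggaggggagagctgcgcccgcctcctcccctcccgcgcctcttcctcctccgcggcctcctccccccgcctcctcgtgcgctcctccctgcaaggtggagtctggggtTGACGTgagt

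The half-site began at position -64 in FOS, -60 in FOSB and -66 in FOSL2. TGACGT stood in 7.10% of all 35116 promoter windows of that length, and in 5 of the 8 members searched, the others being JUND and MAFF. The 8 members have 10 windows in all, so this count of genes and that share of windows are not like measures. In MAFF the half-site is part of the full element TGACGTCA. A TATA box began at position -33 in FOS and -30 in FOSB, and TATAAA stood in 10.7% of all windows. The TPA response element, searched as TGANTCA and present in 6.57% of all windows, and the CArG box, present in 1.16%, had no match within 250 bases in any of the 8 members. The half-site was added to the search after the sequences were seen. These matches are letters in a window, not measured binding.

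JUN, the most abundant AP-1 transcript in control, did not pass the test. It encodes the main DNA-binding partner of the FOS proteins and lies on chromosome 1, positions 58780788 to 58784327. It stood at 464, 501 and 505 CPM in control and at 493, 479 and 499 CPM in the shSTN1-labelled libraries, and the ranges overlap. By edgeR the groups differed by 0.00 on the log2 scale (SE 0.0429, adjusted p = 0.983), and the 95% interval from limma-voom ran from -0.11 to 0.12, that is 0.926-fold to 1.08-fold. The sign of so small a value turned with the scaling, and no alternative brought JUN past the threshold.

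JUNB, a JUN protein with weaker transactivation that can restrain JUN, lies on chromosome 19, positions 12791496 to 12793315. It stood at 82.1, 82.1 and 81.1 CPM in control and at 152, 129 and 149 CPM in the shSTN1-labelled libraries. The groups did not overlap, and the level was 1.75-fold higher (log2 fold change 0.81, SE 0.0738, edgeR adjusted p = 5.56e-12). Exons of HOOK2 on the opposite strand cover 14.2% of the JUNB exon bases, and the strand setting of the counting is not given in the sources used here. HOOK2 did not pass (log2 fold change 0.01, edgeR adjusted p = 0.904).

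JUND, the JUN protein that is usually present in resting cells, lies on chromosome 19, positions 18279760 to 18281622. It stood at 108, 122 and 132 CPM in control and at 111, 104 and 108 CPM in the shSTN1-labelled libraries. The lowest control library lay inside the range of the other group. The 0.891-fold difference (log2 fold change -0.17, SE 0.0895) only just passed, at an edgeR adjusted p of 0.0403. Leaving out control replicate 3 gave an adjusted p of 0.171, and without shSTN1 replicate 1, 2 or 3 it was 0.0525, 0.154 and 0.0953.

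The JUN promoters are shown for the cAMP response element variants they hold. JUN carries TGACATCA, a form with 1 letter changed that stood in 2.37% of all windows, inside the annotated JUN exon, so only its surroundings are printed. JUND carries the full TGACGTCA, which stood in 1.65% of all windows and contains the half-site on both strands, and a separate half-site nearer the start, read on the other strand as ACGTCA. Capitals mark these matches. JUNB had only the TATA box among the marked motifs.
JUN, chr1:58784107-58784114 and 10 bases each side, minus strand, from position -67: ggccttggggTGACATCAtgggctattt
JUND, chr19:18281623-18281872, minus strand, positions -250 to -1: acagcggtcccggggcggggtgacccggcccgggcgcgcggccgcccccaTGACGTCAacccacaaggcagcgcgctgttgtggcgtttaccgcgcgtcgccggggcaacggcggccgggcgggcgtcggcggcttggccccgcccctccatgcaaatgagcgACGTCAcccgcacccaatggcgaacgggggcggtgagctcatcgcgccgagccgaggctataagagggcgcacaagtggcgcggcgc
JUNB, chr19:12791455-12791460 and 10 bases each side, plus strand, from position -31: actagcgcggTATAAAggcgtgtggc

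ATF3, a stress-induced bZIP protein that represses as a homodimer, showed the reverse of the FOS genes. It lies on chromosome 1, positions 212565334 to 212620777. Its level was 48.5, 43.2 and 48.1 CPM in control and 9.13, 8.52 and 8.80 CPM in the shSTN1-labelled libraries. Every shSTN1-labelled library was below every control library, at 0.189 of the control level (log2 fold change -2.40, SE 0.0611, edgeR adjusted p = 6.11e-20). BATF3, a small bZIP protein without a transactivation domain that pairs with JUN and is known from dendritic cell development, lies on the same chromosome at 212686418 to 212699985. It stood at 14.4, 14.3 and 14.9 CPM in control and at 9.47, 9.25 and 9.36 CPM, 0.643 of control (log2 fold change -0.64, SE 0.0199, edgeR adjusted p = 2.65e-05).

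MAFF is a small MAF protein, also without a transactivation domain, that pairs with NRF2 and related factors. It lies on chromosome 22, positions 38200767 to 38216511, and had the lowest level in CPM of the 10 in control. It stood at 7.03, 6.58 and 9.75 CPM in control and at 14.3, 14.8 and 14.8 CPM in the shSTN1-labelled libraries. Control replicate 3 was the highest of its group, still below the other group. The difference was 1.88-fold (log2 fold change 0.92, SE 0.174, edgeR adjusted p = 6.12e-07). The 2 promoters below are shown because a lowered and a raised gene both hold a cAMP response element or its variant, in capitals.
ATF3, first of its 2 RefSeq starts, chr1:212565157-212565333, plus strand, positions -250 to -74: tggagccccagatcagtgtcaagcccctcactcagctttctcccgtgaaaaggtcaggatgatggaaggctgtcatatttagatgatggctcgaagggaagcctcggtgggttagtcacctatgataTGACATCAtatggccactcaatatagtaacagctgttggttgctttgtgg
MAFF, first of its 2 RefSeq starts, chr22:38201940-38201947 and 10 bases each side, plus strand, from position -54: gccgggtcggTGACGTCAccgcatgact

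TGACATCA thus stood before JUN, which did not pass the test, and before the first start of ATF3, which fell. The second RefSeq starts of ATF3 and MAFF held neither a cAMP response element nor its variant within 250 bases. Gene-level counts do not tell which start the measured transcripts came from. TGACGTCA stood before JUND, whose call is lost when 1 of 4 single libraries is left out, and before the first start of MAFF, which rose.

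To compare the genes with each other, levels were divided by the annotated exon length in kilobases. In control the order by mean CPM per kilobase was JUN (138 ± 6.42, SD, n = 3), JUND (64.8 ± 6.59), JUNB (44.9 ± 0.322), FOS (18.8 ± 0.0971), FOSL1 (17.6 ± 0.489), ATF3 (11.5 ± 0.736), BATF3 (5.36 ± 0.113), FOSB (4.55 ± 0.216), FOSL2 (3.30 ± 0.12) and MAFF (1.39 ± 0.306). Neighbours in this order did not overlap between libraries. In the shSTN1-labelled libraries FOSL1 stood first at 166 ± 3.82 CPM per kilobase, above JUN at 139 ± 2.89. JUNB (78.9 ± 6.8) and FOS (74.8 ± 2.47) followed, and their libraries overlapped. JUND was at 57.8 ± 1.81, FOSB at 24.3 ± 2.38 and FOSL2 at 7.47 ± 0.605 CPM per kilobase. BATF3 (3.45 ± 0.0406), MAFF (2.61 ± 0.0533) and ATF3 (2.18 ± 0.0758) were lowest. The places of some genes depended on the length used. With the longest transcript in place of all exons, ATF3 was at 22.2 ± 1.41 in control, above FOSL1 (19.9 ± 0.553), and FOSB (6.70 ± 0.317) was above BATF3 (6.17 ± 0.131). In the shSTN1-labelled libraries FOS was then at 112 ± 3.7, above JUNB at 78.9 ± 6.8 CPM per kilobase, and ATF3 at 4.19 ± 0.146 was above BATF3 at 3.97 ± 0.0467. FOSL1 stayed above JUN there, at 188 ± 4.31 against 139 ± 2.89 CPM per kilobase.

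The FOS genes took a much larger share of the AP-1 mRNA in the shSTN1-labelled libraries. Their summed level was 44.3, 44.8 and 43.7 CPM per kilobase in control and 268, 273 and 279 in the shSTN1-labelled libraries. The 3 JUN genes summed to 234, 252 and 258 CPM per kilobase in control and to 282, 262 and 281 in the shSTN1-labelled libraries, without overlap. The FOS share of the FOS and JUN total was 15.9%, 15.1% and 14.5% in control and 48.7%, 51.0% and 49.8% in the shSTN1-labelled libraries. Measured with the longest transcript as the length, the group means were 19.0% and 55.6%. All 10 members together summed to 311 ± 12.5 CPM per kilobase in control and 556 ± 12.6 in the shSTN1-labelled libraries (SD, n = 3).

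Within the FOS genes, FOSL1 took 39.8% ± 0.734 of the summed level in control and 61.0% ± 1.23 in the shSTN1-labelled libraries, and FOS 42.4% ± 0.623 and 27.4% ± 0.849. FOS thus lost share while its own level rose, since FOSL1 rose more. Within the JUN genes, JUN took 55.8% ± 0.471 and 50.4% ± 1.15, and JUNB 18.1% ± 1.03 and 28.6% ± 1.34. Of the whole pool of 10, FOSL1 took 5.68% ± 0.357 in control and 29.9% ± 1.19 in the shSTN1-labelled libraries. JUN took 44.5% ± 0.472 and 24.9% ± 0.0631 while its level was 138 and 139 CPM per kilobase. By exact permutation test, two-sided, the shares of 8 members gave p = 0.1, the smallest that 3 libraries against 3 can give, and those of JUNB and MAFF gave p = 0.7. These are shares of mRNA and do not measure protein or dimers.

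**Figure D3:**
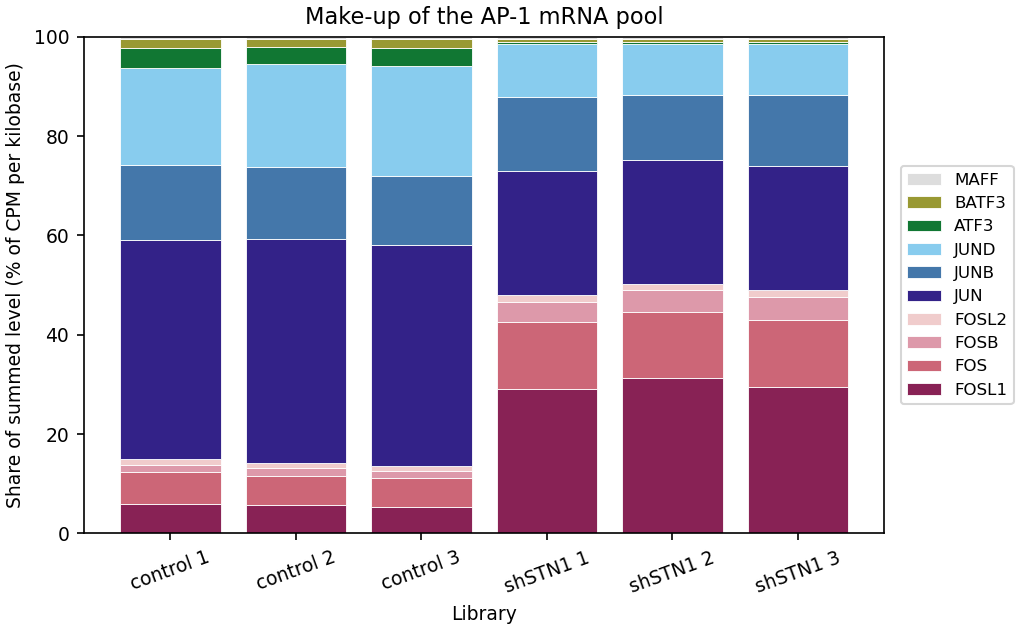
Share of each AP-1 gene in the summed level of the 10 genes, in percent of CPM per kilobase of exon, as stacked bars for the 6 libraries. The red shades of the FOS genes fill a much larger part of the 3 shSTN1-labelled bars, FOSL1 going from 5.68% to 29.9% on average, while the JUN genes fill most of the control bars.

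The AP-1 genes were then set beside the tested genes within 0.5 Mb of them, and the counts read against the 35.6% of all genes tested that were higher and the 38.5% that were lower. FOSL1 had 47 such neighbours, 37 higher and 4 lower, with a median log2 fold change of 0.68, all below its own 3.24. Among them were CFL1 (1.18), the actin-severing cofilin gene, and DRAP1 (1.96), a repressor of general transcription, both named after their values were seen. MAFF had 29 neighbours, 26 lower and 1 higher, with a median of -1.12, against its own 0.92. No neighbour of MAFF was as high as MAFF. FOS (16 neighbours, median -0.13) and FOSB (38 neighbours, median -0.36) also stood above every neighbour, and 22 of the 38 around FOSB were lower.

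ATF3 and BATF3 are neighbours, with starts 135 kb apart. Of the 13 tested genes around ATF3, BATF3 among them, 8 were lower and 3 higher, with a median of -0.40. VASH2, an angiogenesis-related gene named after its values were seen, was lower than ATF3, at -3.13. BATF3, at -0.64, lay inside the range of its neighbours. JUN had 6 neighbours with a median of 0.02. The genes around JUNB (37, median -0.08), JUND (28, median -0.32) and FOSL2 (8, median 0.30) lay on both sides of each member. Copy number of these regions was not measured in these libraries.

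**Figure D4:**
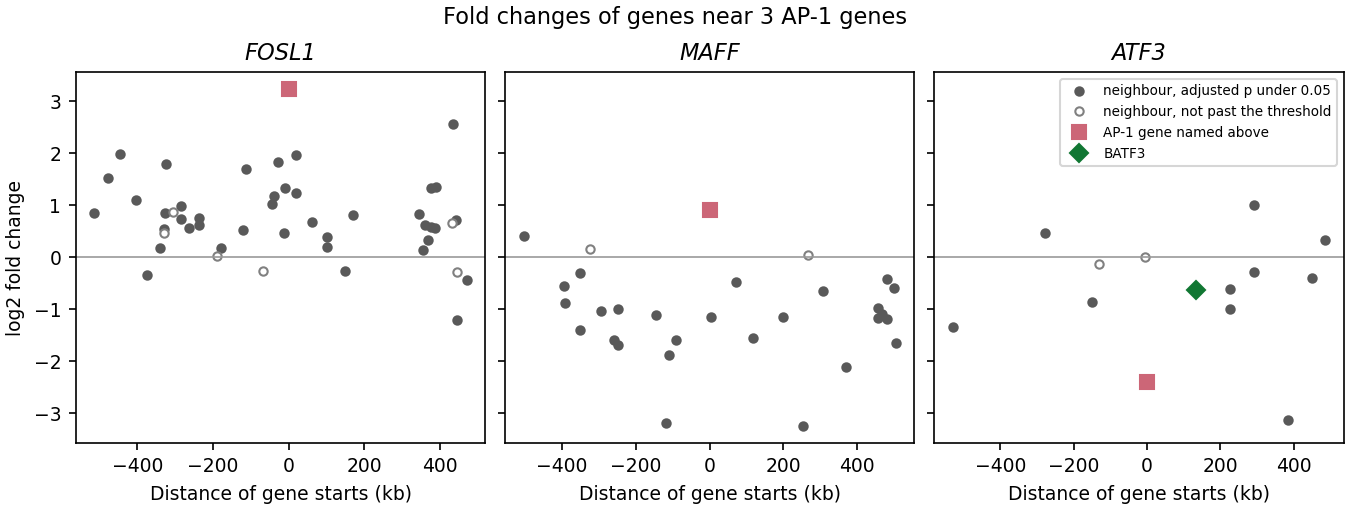
Log2 fold change, shSTN1-labelled minus control, of tested genes (vertical axis) against the distance between gene starts in kilobases, positive towards higher coordinates, around FOSL1, MAFF and ATF3. FOSL1 sits above 47 mostly raised neighbours, MAFF above 29 mostly lowered ones, and ATF3 is below all but 1 of 13.

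Other immediate-early genes were mostly higher, as the FOS genes were. Of 29 tested, 21 were higher and 5 lower, at a median of 0.82 on the log2 scale. Over all genes 35.6% were higher, 38.5% were lower and the median was -0.03. Like the lists below, this list was chosen with earlier results of these libraries known, so its direction is not independent evidence. The matricellular growth factor gene CCN1 rose from 87.9 ± 3.97 to 609 ± 6.88 CPM (log2 fold change 2.79) and CCN2 from 49.6 ± 1.59 to 241 ± 11.9 CPM (2.28). ZFP36, whose product degrades short-lived mRNAs including those of immediate-early genes, rose from 211 ± 9.47 to 1192 ± 97.1 CPM (2.50). IER3 (2.56) and the zinc finger factor gene EGR2 (2.66, from 1.43 CPM) rose as well. The antiproliferative p53 target BTG2 fell from 31.1 ± 1.4 to 4.04 ± 0.407 CPM (-2.95).

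Genes described as AP-1 targets were mostly higher. Of 33 listed, 26 were tested, 22 higher and 3 lower, with a median of 2.52. Over all genes tested, 35.6% were higher and 38.5% lower. Of the 26, 19 were at least 2-fold higher where 15.7% of all genes tested were. The list was drawn up with earlier results of these libraries known, so its direction is not independent evidence. The urokinase gene PLAU rose from 35.7 ± 1.8 to 510.1 ± 12.1 CPM (log2 fold change 3.84). The ecto-nucleotidase gene NT5E rose from 25.4 ± 2.51 to 258 ± 12.7 CPM (3.35), and the receptor gene EPHA2 from 93.6 ± 4.35 to 592 ± 9.12 CPM (2.66). The collagenase gene MMP1 had 6, 4 and 8 control reads and 158, 174 and 132 reads in the shSTN1-labelled libraries, and the chemokine gene CXCL8 had a log2 fold change of 3.56. PLAUR, TGFB1 and TNFRSF10B were the 3 that fell (-0.64, -0.29 and -0.32), and VEGFA was at 0.02 (edgeR adjusted p = 0.832). These 4 were named after their values were seen. MMP3, MMP10, MMP13, IL6, IVL, SPRR1B and KRT17 had too few reads to be tested.

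**Figure D5:**
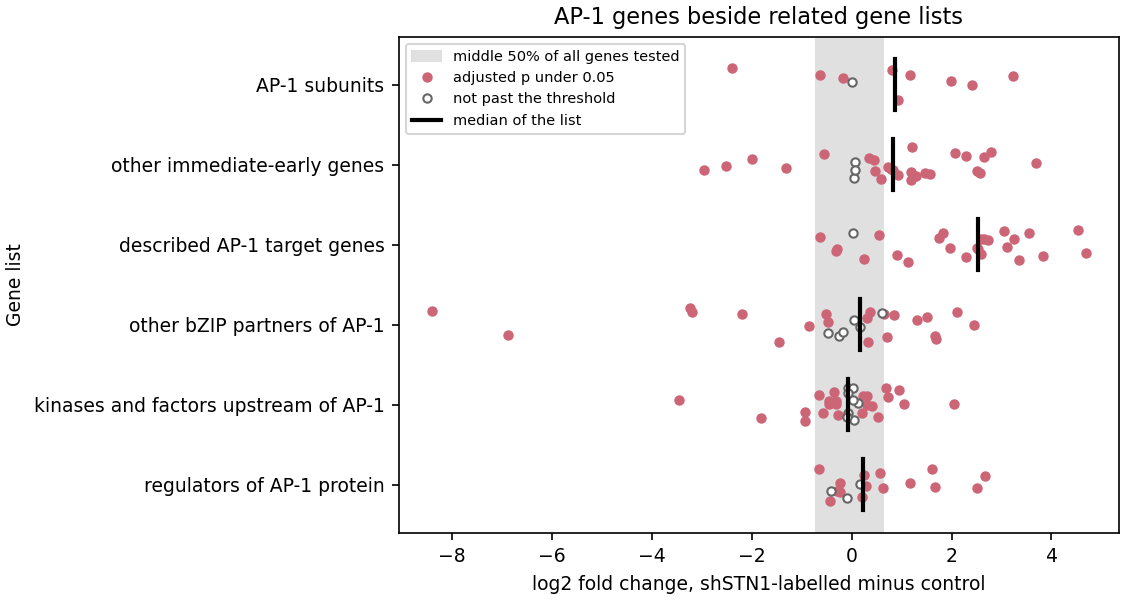
Log2 fold change, shSTN1-labelled minus control, of each tested gene (points) in 6 gene lists, filled where the edgeR adjusted p is under 0.05, with the list's median as a bar. The medians of AP-1 subunits (0.87), other immediate-early genes (0.82) and described targets (2.52) lie right of the grey band of all genes, and those of the other 3 lists lie inside it.

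The bZIP partners of AP-1 lay on both sides. Of 27 tested, 12 were higher and 9 lower, with a median of 0.17, where 35.6% of all genes tested were higher and 38.5% lower. MAF, which encodes a large MAF protein, had 898, 1011 and 798 reads in control and 6, 14 and 2 in the shSTN1-labelled libraries. CEBPA, a differentiation factor, fell from 32.6 ± 3.61 to 3.42 ± 0.32 CPM (log2 fold change -3.25) and CREB5 from 27.7 ± 3.36 to 3.03 ± 0.464 CPM (-3.19). ATF5, a stress-response factor, rose from 22.2 ± 1.06 to 122 ± 3.3 CPM (2.46).

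The kinases and factors upstream of AP-1 also lay on both sides. Of 31 tested, 11 were higher and 12 lower, with a median of -0.07, and 4 were at least 2-fold different. The 23 that passed stand against 74.1% of all genes tested, and the 4 against 34.6%. By direction, 35.6% of all genes tested were higher and 38.5% lower. MAPK11, the p38 beta kinase, rose from 23.9 ± 2.82 to 99.1 ± 7.16 CPM (log2 fold change 2.06), whereas MAP2K6, a kinase that activates p38, fell from 324, 333 and 269 reads to 18, 30 and 33 (-3.46). The ternary complex factor gene ELK3, whose product binds beside SRF, rose (1.04), as did the SRF cofactor gene MRTFB (0.95). RPS6KA5, which encodes the histone kinase MSK1, fell (-1.82). SRF, named after its values were seen, did not pass the threshold (0.12, edgeR adjusted p = 0.116).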

How the data were processed

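RNA of 6 libraries labelled PANC-1 was extracted with Trizol and made into libraries with a NEBNext Ultra kit, per the labels' protocols. The deposited values are raw gene counts in whole numbers, not normalized. The submitters' processing notes name cutadapt, FastQC, STAR 2.7.2b, featureCounts 2.0.1 and the build GRCh38. Neither annotation release nor strand setting is given in the sources used here, so overlapping genes may share or lose reads.

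Of 60668 rows, 45 second copies of pseudoautosomal genes were left out. The fit used edgeR 4.0.16 in R 4.3.3 on all 6 libraries: filterByExpr, TMM factors, robust quasi-likelihood test of shSTN1 minus control, and Benjamini-Hochberg adjustment over 17451 genes, with a threshold of 0.05. CPM uses TMM-scaled library sizes. SEs come from the 2 groups' log2 CPM values (prior count 2), and intervals are from limma-voom (limma 3.58.1). Lengths and positions are GENCODE 29. The fitting script was tested on simulated data. No library was a copy of another in its group: their counts gave a chi-square of 2.88 to 8.06 for each degree of freedom.

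The members and gene lists were chosen with earlier results of these data known. Named were all 10 members and STN1. From each list the rule took up to 4 called genes with the smallest adjusted p and up to 4 with the largest fold at 5 CPM or more, from each marker list the 3 most abundant, and, for the members with the highest and lowest fold change, the 3 genes nearest in log2 CPM pattern. Alternatives were other scaling factors, low-count filters, a threshold of 0.01, limma-voom, DESeq2 1.42.0, the replicate block, leaving out each library and another gene length. Figures were drawn with matplotlib 3.10.9. No column of values was left out. The text leaves out a few genes picked by the naming rule.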

Additional observations from a re-analysis of the deposited data

How the results depend on the processing

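Over 15 alternatives, FOS, FOSB, FOSL1, FOSL2, JUNB, ATF3, BATF3 and MAFF kept their direction and stayed past the threshold in all. JUND kept its direction and was lost in 6, with adjusted p-values from 0.00301 to 0.397 over the 15. The count of members past the threshold was 8 or 9, and at least 2-fold differences were found for 5 or 6. JUN, past the threshold under none of the alternatives, turned to -0.01 with RLE factors (-0.00563) and DESeq2 (-0.00564), -0.03 with upper-quartile factors (-0.0326) and no low-count filter (-0.0289), and -0.00414 without shSTN1 replicate 3. Leaving out each library in turn gave JUN values from -0.0498 (without control replicate 1) to 0.0236 (without shSTN1 replicate 2). Using shSTN1 replicate 1 alone against control, chosen after the labels of replicates 2 and 3 were seen to differ and with the lone library assumed to vary like the others, left 8 members called. With the longest transcript as gene length, the FOS family share differed by 36.5 percentage points between groups, against 34.7 with the union of exons. No scaling alternative moved the median of all genes by over 0.1. Deviations of libraries with the same replicate number correlated at -0.0123, 0.0171 and -0.0337, so little deviation was shared by number. These correlations cannot exclude that the libraries were handled in pairs. The replicate block left 9 members called, JUND at an adjusted p of 0.0495, and 12742 genes in all against 12929. With 3 libraries against 3, exact tests could not go below p = 0.1.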

Other observations

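Genes whose products act on AP-1 proteins or bind DNA next to them were measured beside the subunits. Of 18 tested, 10 rose and 5 fell, where 35.6% of all genes tested were higher and 38.5% lower. Their median log2 fold change was 0.23, against -0.03 for all genes tested. ETS1 and ETS2, which encode factors that bind next to AP-1 at many promoters, had the largest values. ETS1 rose from 24.4 ± 3.02 to 155 ± 1.27 CPM (2.66) and ETS2 from 156 ± 6.55 to 888 ± 60.6 CPM (2.51). The ubiquitin ligase gene SMURF1 rose from 43.6 ± 2.78 to 139 ± 3.38 CPM (1.67), and FHL2, a LIM protein known to bind JUN and FOS proteins, from 45.0 ± 5.6 to 137 ± 7.3 CPM (1.60).

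By distance of centred log2 CPM over the 6 libraries, the genes nearest to FOSL1 were the immunoproteasome gene PSMB9 (distance 0.207, log2 fold change 3.16), the polo-like kinase gene PLK2 (0.209, 3.29) and NT5E (0.218, 3.35). Those nearest to ATF3 were the Wnt secretion gene WLS (0.126, -2.38), the small GTPase gene RHOB (0.141, -2.43) and the homeobox gene MSX1 (0.15, -2.46). Since the libraries of each group lay close together for FOSL1 and ATF3, such a distance rests mainly on the fold change between groups. Shared regulation was not tested.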
